A study of Sus scrofa with 30 samples.

Results

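The transcriptome of the sow mammary gland at late gestation (LG, day 110 of gestation) was compared with that at mid-gestation (MG, day 70). Samples were assigned to stages by their titles, and 6 of the series' 30 samples entered the comparison, namely LG_1, LG_3 and LG_4 against MG_1, MG_3 and MG_6. All 61773 transcripts of the expression table were tested. Each sample was parenchyma from the third gland on the left side of 1 multiparous Danish Landrace × Yorkshire sow, with 6 sows sampled per stage, and the sows were related through a common parent. No treatment separated the stages, so sow and stage are the only factors that the labels give. The paper also lists age and body weight, and its LG sows were heavier and mostly older than its MG sows. Age and weight therefore cannot be told apart from stage.

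Between these days the gland passes from growth of the ductal tree and alveoli to the first secretory differentiation, in which milk protein genes are switched on and colostrum collects in the alveoli. Prolactin and glucocorticoids drive that step in the epithelial cell. The signal of the prolactin receptor is carried into the nucleus by the transcription factors STAT5A and STAT5B.

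Only 3 of the 6 samples per stage were counted as replicates. The other samples, MG_2, MG_4, MG_5, LG_2, LG_5 and LG_6, differed from one another by a median of at most 1.80% per transcript in MG and 1.82% in LG, whereas the counted samples differed pairwise by 20.5% to 23.6% in MG and 19.6% to 22.7% in LG. The mean of the samples left out lay within a median of 0.698% in MG and 0.688% in LG of the mean of the counted ones. The stage text of the labels goes against the titles for MG, whose 6 samples carry the text of early lactation, and for the 6 samples titled EL, which carry that of mid-gestation. For LG, title and text are the same stage. With the samples grouped by the stage text instead, 11 transcripts and 4 gene sums passed the tests described below, 4 and 2 of them the same as under the titles, and the median log2 fold change of the milk protein genes was -1.38 in place of 1.42, that of the interferon-stimulated genes 1.06 in place of 0.66 and that of the cell division genes 0.15 in place of -0.53.

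The values were deposited as fragments per kilobase scaled to library size (FPKM), without counts per transcript. They summed to between 997738 and 998119 in each of the 6 samples, a near constant total. The paper lists clean and mapped reads for each library, which differ between libraries and were not used here. Transcripts above 0 numbered 43663 to 45457 in MG and 44724 to 44779 in LG. The correlation of the log2 values averaged 0.760 within MG, 0.762 within LG and 0.764 between the stages, so that samples of different stages resembled each other as much as samples of the same stage did. Markers of the luminal epithelium were present throughout, with the cell adhesion molecule EPCAM at 624, 534 and 475 FPKM in MG and 497, 608 and 514 FPKM in LG. The tissue is bulk parenchyma, in which fewer cells of a type and less RNA per cell cannot be told apart.

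Of the 61773 transcripts, 10 differed between the stages (0.0162% of all tested, limma on the log2(FPKM + 0.5) scale, with a Benjamini-Hochberg adjusted p under 0.05 and a change of 2 or more log2 units either way). There were 5 higher and 5 lower in LG. A transcript of STAT5B had the largest difference, and the others belonged to the soluble guanylate cyclase subunit GUCY1A3, the nuclear cyclophilin PPIG, the ceramide-1-phosphate transfer protein CPTP, the endothelial secreted protein EGFL7 and 5 loci assembled by the authors. In 9 of the 10 cases the sum over all transcripts of the gene or locus did not pass the same test.

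The STAT5B transcript XM_021066242.1 (gene at chr12:20498103-20574365 of Sscrofa11.1) stood at 1.33, 0 and 0 FPKM in MG_1, MG_3 and MG_6, and at 36.7, 27.4 and 23.5 FPKM in LG_1, LG_3 and LG_4. All 3 LG samples lay far above every MG sample. It rose by 5.25 on the log2(FPKM + 0.5) scale (SE 0.52, limma adjusted p = 0.0027), and its share of the gene's summed value went from 0.361% to 22.2%. The gene sum did not pass, with means of 123 FPKM in MG and 131 FPKM in LG and a log2 fold change of 0.08 (limma adjusted p = 1). None of the other 4 STAT5B transcripts separated the stages. XM_021066241.1, the most abundant, stood at 26.2, 40.5 and 71.2 FPKM in MG and at 102, 9.06 and 39.0 FPKM in LG, while XM_021066239.1 ran from 1.71 to 63.0 FPKM in MG and from 0.390 to 37.9 FPKM in LG. Both varied widely within a stage and overlapped between stages. In the 9 counted samples of the lactation and weaning stages, XM_021066242.1 was present in every sample, at 8.09 to 38.4 FPKM, so that MG alone lacked it or nearly so.

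GUCY1A3 encodes the alpha subunit of the receptor for nitric oxide and lies at chr8:44448758-44520737. Its transcript XM_021100510.1 was listed at 0 in all 3 MG samples and at 6.52, 3.31 and 3.63 FPKM in LG (limma adjusted p = 0.0027). It made up 12.7% of the gene in LG. The main transcript, NM_001018033.1, was at 22.4, 4.66 and 5.35 FPKM in MG and 14.2, 25.4 and 15.7 FPKM in LG, and the gene sum had a log2 fold change of 0.48 that did not pass (limma adjusted p = 1).

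PPIG belongs to the peptidyl-prolyl isomerases of nuclear speckles, where splicing factors collect, and lies at chr15:75940397-75979168. Its transcript XM_005671915.3 was at 9.40, 5.23 and 5.71 FPKM in MG and at 0, 0.0340 and 0 FPKM in LG. It fell by 3.79 on the log2 scale (SE 0.37, limma adjusted p = 0.0027), from 33.5% of the gene to 0.0681%. The transcript XM_001926861.6 of the same gene was at 10.7, 5.92 and 6.82 FPKM in MG and 10.4, 8.48 and 9.87 FPKM in LG, which overlapped. After weaning the first transcript stood at 3.80 to 8.76 FPKM again, while in both lactation stages it was at most 0.0604 FPKM.

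CPTP lies at chr6:63607991-63612325, and its transcript XM_005653340.3 was at 1.99, 2.21 and 1.88 FPKM in MG and listed at 0 in all 3 LG samples (limma adjusted p = 0.030). It held 78.0% of the gene in MG, and 2 other transcripts made up the whole of the LG value. EGFL7, on an unplaced sequence, had its transcript XM_021081039.1 at 1.91, 3.39 and 4.91 FPKM in MG and listed at 0 in LG (limma adjusted p = 0.011). The transcript was 14.1% of the gene in MG. Of the 11 EGFL7 transcripts in the table, all above 0 in at least 1 of the 6 samples, it was the only one to separate the stages.

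Of the assembled transcripts, MSTRG.2113.15 was at 9.78, 7.70 and 11.2 FPKM in MG and listed at 0 in LG (limma adjusted p = 0.00019), in a locus of 15 transcripts whose sum was 63.0 FPKM in MG and 61.0 FPKM in LG. MSTRG.2295.1 was at 5.08, 1.67 and 2.35 FPKM in MG and listed at 0 in LG (limma adjusted p = 0.047). MSTRG.3335.1 was at most 0.000036 FPKM in MG and at 12.2, 2.26 and 15.4 FPKM in LG (limma adjusted p = 0.030). The transcripts MSTRG.5646.3 and MSTRG.8169.1, both listed at 0 in MG, reached means of 1.68 and 3.09 FPKM in LG (limma adjusted p = 0.021 and 0.011). MSTRG.8169.1 was the only transcript of its locus, which is why its sum passed too. The assembled loci carry no gene name in the table.

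**Figure D1:**
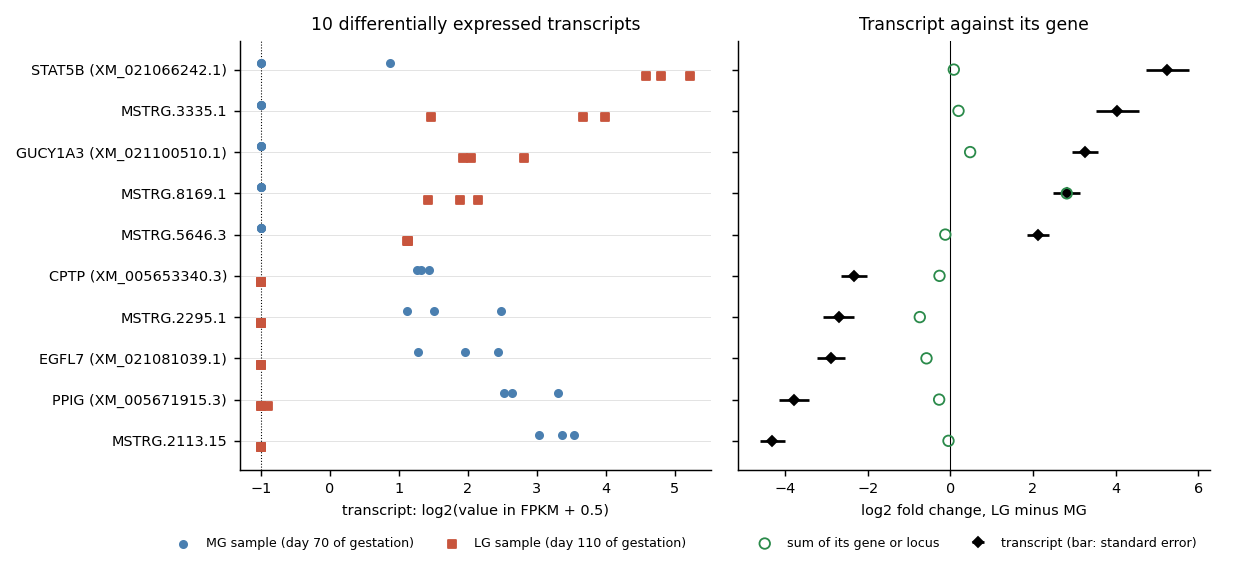
Left, the 10 transcripts that differed, each sample's value as log2(FPKM + 0.5), circles for MG and squares for LG, the dotted line marking a listed 0. Right, the log2 fold change of the transcript with its standard error (diamonds) and of the sum of its gene or locus (open circles), which lies between -0.74 and 0.48 except for MSTRG.8169, at 2.82; where 1 stage is listed at 0 the size depends on the 0.5 added.

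**Figure D2:**
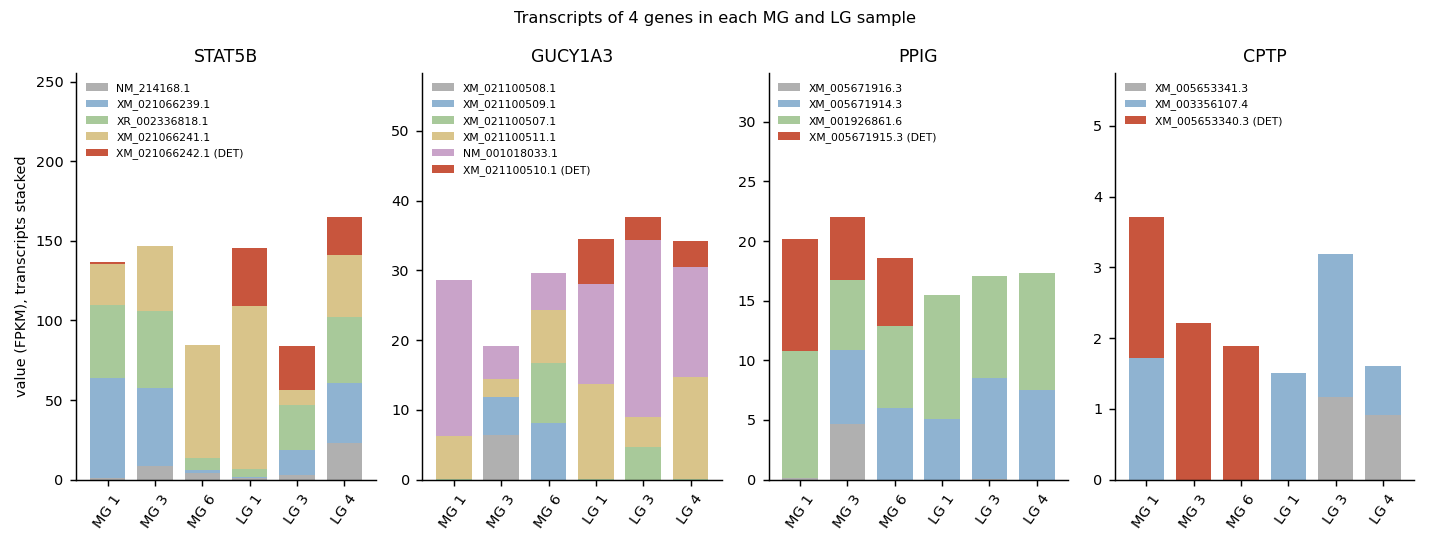
Stacked FPKM of all transcripts of STAT5B, GUCY1A3, PPIG and CPTP above 0 in each of the 6 samples, the transcript that differed in red. In STAT5B the red transcript is seen in all 3 LG samples and in a thin band of MG_1 only, while the height of the whole bar overlaps between stages.

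These 10 transcripts passed in a fit that takes its estimate of spread from all 5 stages. With LG and MG alone in the fit, none of them passed (limma adjusted p = 0.087 to 0.46) and 9 other transcripts did. In all 9 counted samples of the other stages, MSTRG.2113.15, MSTRG.5646.3 and the differing transcripts of EGFL7 and GUCY1A3 were listed at 0. MSTRG.3335.1 and the CPTP transcript were at 0 in 8 of those samples and MSTRG.8169.1 in 7. For these transcripts the other stages gave the fit little or no spread. Leaving out any 1 of the 6 samples gave 50 to 72 transcripts, with all of the 10 among them each time. Other settings kept fewer of the 10. Requiring a mean of at least 1 FPKM kept 3, and adding 1 in place of 0.5 to each value kept 6. Values of 0 beside values of 1 FPKM or more were also common within a stage. In MG, 12696 transcripts (29.2% of those reaching 1 FPKM in any MG sample) were listed at 0 in at least 1 sample and at 1 FPKM or more in another, and in LG 12249 (28.6%) were. By comparison, 67 transcripts were listed at 0 in all LG and at 1 FPKM or more in all MG samples, and 52 the other way round. For 28 of the 37 reference transcripts in the first set, and 14 of the 22 in the second, the gene sums of the 2 stages overlapped.

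Summing transcripts to genes gave 26019 reference genes and assembled loci, of which 3 passed (0.0115% of all tested). All 3 were assembled loci. MSTRG.3277 was at 9.01, 7.89 and 4.28 FPKM in MG and at 0.0624, 0.0739 and 0 FPKM in LG (log2 fold change -3.74, SE 0.27, limma adjusted p = 0.00016). MSTRG.7176 was listed at 0 in MG and stood at 0.973, 2.23 and 3.26 FPKM in LG (limma adjusted p = 0.045), and MSTRG.8169 is the locus described above. MSTRG.7176 no longer passed without LG_3, MG_1 or MG_3 (limma adjusted p = 0.066, 0.077 and 0.11). No reference gene passed in the limma test, the lowest adjusted p being 0.27, and 121 were higher and 548 lower at an unadjusted p below 0.05 among the 12799 reference genes that averaged at least 1 FPKM in MG or LG.

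The median gene or locus was lower in LG, by 0.109 on the log2 scale over all 26019 and by 0.13 over the 21794 that averaged at least 1 FPKM in MG or LG. Among these 21794, called measured from here on, 1.28% were higher and 3.78% lower in LG at an unadjusted p below 0.05, and in 3.24% every LG sample was above every MG sample and in 12.9% below. Scaling each sample by its median ratio over common genes brought the median shift to 0.01 and the shares that did not overlap to 8.62% higher and 6.31% lower. Medians of gene groups are therefore given as deposited, with the median after this scaling beside them. The groups below are lists of genes by function or cell type, and no member of any list passed the test over all genes.

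Interferon-stimulated genes, which encode antiviral sensors and effectors, were the list with most members higher in LG. Of 28 measured members, 27 had a positive log2 fold change, 17 did not overlap and were higher in all 3 LG samples, 8 were higher at an unadjusted p below 0.05 and none was lower. The median log2 fold change was 0.66, and 0.79 after scaling, when 21 of the 28 did not overlap. Over all measured gene sums, 3.24% were higher without overlap (8.62% after scaling). As deposited, 1.28% were higher at an unadjusted p below 0.05. The summed value of the list was 500, 440 and 553 FPKM in MG and 1294, 901 and 1347 FPKM in LG.

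IFI6, a mitochondrial and endoplasmic reticulum protein of the interferon response, contributed most. It stood at 80.5, 53.2 and 128 FPKM in MG and 708, 315 and 704 FPKM in LG, a log2 fold change of 2.71 (SE 0.59, limma adjusted p = 0.64). The lowest LG sample was more than 2 times the highest MG sample. ISG12(A), a second small interferon-induced protein, was at 41.9, 29.6 and 51.1 FPKM in MG and 246, 118 and 219 FPKM in LG, again without overlap. In both genes LG_3 was the lowest LG sample and MG_3 the lowest MG sample.

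Of the genes that sense viral RNA or regulate such sensors, 2 were named by the rule. DDX60 was at 3.73, 0.418 and 5.15 FPKM in MG and 11.9, 8.93 and 14.2 FPKM in LG, and DHX58, also named LGP2, at 5.52, 4.44 and 6.92 FPKM against 13.3, 11.2 and 14.7 FPKM. Their log2 fold changes were 2.10 (SE 0.65) and 1.16 (SE 0.49), and without MG_3 that of DDX60 was 1.29. Effectors among the named genes bind viral RNA or block viral budding. IFIT1 went from 7.99, 5.38 and 6.26 FPKM to 11.2, 14.0 and 19.0 FPKM (log2 fold change 1.10, SE 0.33), and RSAD2, also named viperin, from 3.30, 1.62 and 3.11 FPKM to 6.29, 6.98 and 8.09 FPKM (log2 fold change 1.30, SE 0.53). The ubiquitin-like protein ISG15 was at 1.57, 0.476 and 0.276 FPKM in MG and 4.52, 3.60 and 8.69 FPKM in LG. IFIT3 (0.83, SE 0.34) and the nucleotide kinase CMPK2 (0.68, SE 0.30) had smaller log2 fold changes, also without overlap.

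Genes of cell division lay the other way. Of 39 measured members, 36 had a negative log2 fold change, and 24 did not overlap and were lower in all 3 LG samples. At an unadjusted p below 0.05, 10 were lower and 2 higher as deposited, and 3 lower and 2 higher after scaling. Over all measured gene sums, 12.9% were lower without overlap (6.31% after scaling) and 3.78% were lower at that p as deposited. The median was -0.53, and -0.39 after scaling, when 17 did not overlap and were lower and 1 was higher. The summed value was 608, 809 and 744 FPKM in MG and 465, 466 and 542 FPKM in LG.

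Among the genes of DNA replication, the sliding clamp PCNA was at 82.2, 122 and 106 FPKM in MG and 64.1, 54.9 and 66.0 FPKM in LG (log2 fold change -0.73, SE 0.23, limma adjusted p = 1). The helicase subunits MCM2 (-0.86, SE 0.32) and MCM3 (-0.64, SE 0.27) were lower in all 3 LG samples as well. Of the mitotic genes, CCNB1, the cyclin that takes the cell into mitosis, was at 18.0, 24.3 and 25.2 FPKM in MG and 13.1, 12.5 and 13.6 FPKM in LG. CCNA2 (-1.16, SE 0.49), CCNB2 (-0.59, SE 0.25), UBE2C (-0.78, SE 0.34), CDC20 (-0.61, SE 0.25), BIRC5 (-0.53, SE 0.22) and PRC1 (-0.53, SE 0.24) made up the rest of the 10 lower as deposited. The 2 members higher at an unadjusted p below 0.05 were at low values. MCM4 was at 0, 1.35 and 0 FPKM in MG and 2.55, 5.54 and 7.71 FPKM in LG, and E2F1 at 0.0362, 0.0764 and 0.0392 FPKM in MG and 6.65, 5.51 and 0 FPKM in LG. Each is a single reference transcript in the table, and assembled transcripts of the same gene could not be joined to it.

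**Figure D3:**
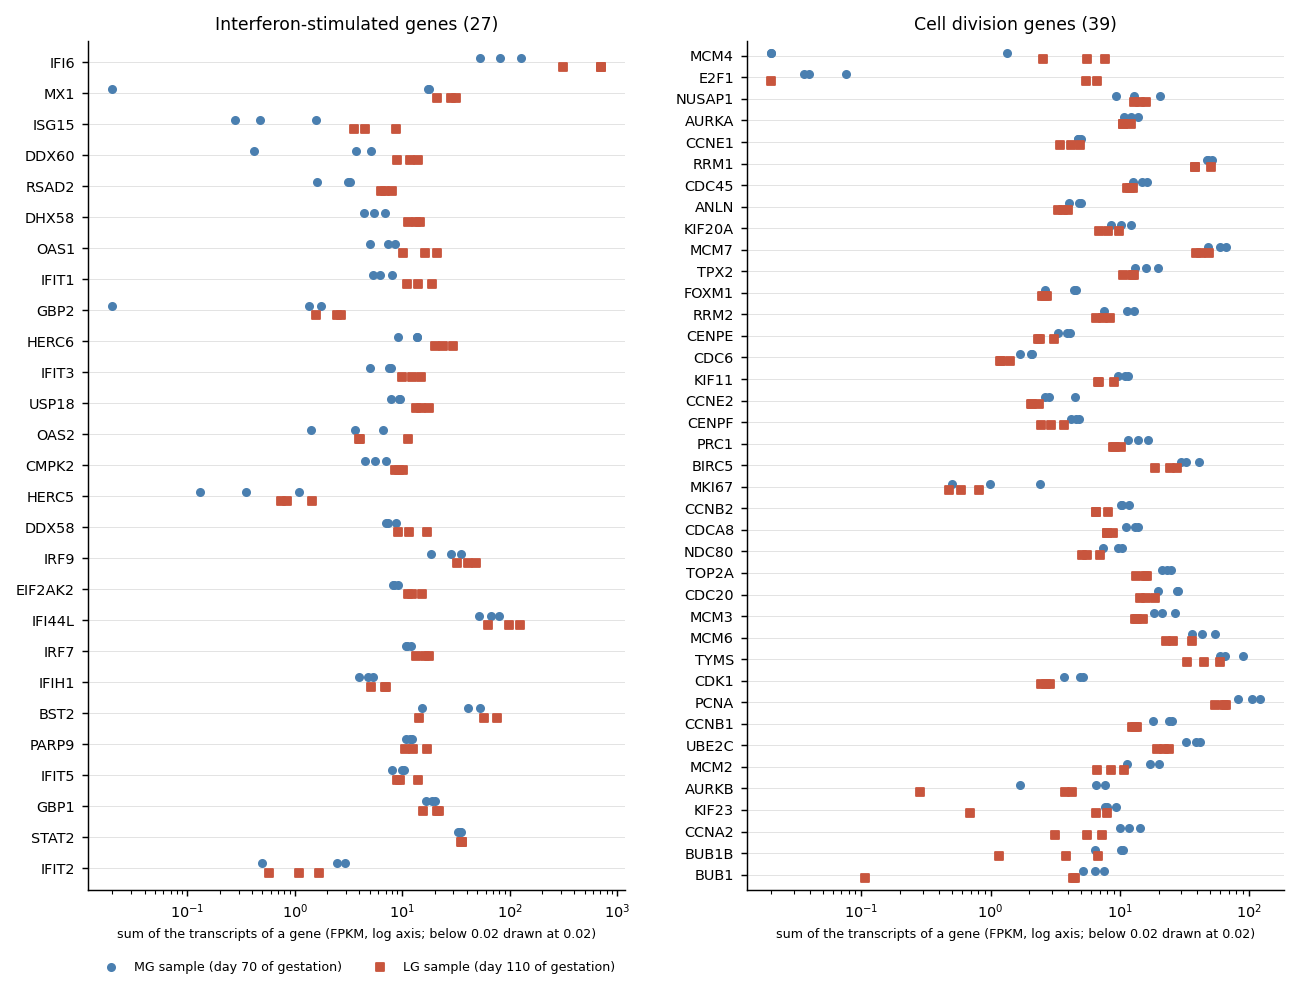
Summed FPKM per gene on a log axis for 27 of the 28 measured interferon-stimulated genes (left) and the 39 measured cell division genes (right), circles for MG and squares for LG samples, ordered by log2 fold change. On the left 16 genes have all 3 squares right of all circles, and on the right 24 genes have all 3 squares left of them.

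The 7 milk protein genes all had positive log2 fold changes, with a median of 1.42 (1.57 after scaling), and 1 of them did not overlap. The alpha-S1 casein gene CSN1S1 (chr8:66888231-66908306) was at 5164, 4045 and 4921 FPKM in MG and at 7570, 15187 and 17152.5 FPKM in LG, a log2 fold change of 1.42 (SE 0.32, limma adjusted p = 0.69). The other caseins overlapped. The beta-casein gene CSN2 was at 16977, 4862 and 7615 FPKM in MG and 21151, 31971 and 12576 FPKM in LG, with MG_1 above LG_4, and the kappa-casein gene CSN3 at 6961, 2969 and 4041 FPKM against 7072, 9712 and 4041 FPKM.

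PAEP, which encodes beta-lactoglobulin, was the most abundant milk protein transcript at both stages, at 133990, 100471 and 124973 FPKM in MG and 140236, 144915 and 125190 FPKM in LG (log2 fold change 0.20, SE 0.14, and 0.08 without MG_3). Together the 7 genes took 13.97% ± 2.57 (SD, n = 3) of the FPKM in MG and 18.14% ± 2.26 (SD, n = 3) in LG. Without PAEP the share was 1.96% ± 0.90 (SD, n = 3) in MG and 4.44% ± 1.33 (SD, n = 3) in LG, and the ranges, 1.19% to 2.95% and 3.40% to 5.94%, did not overlap.

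The less abundant milk protein genes varied most between sows. The alpha-S2 casein gene CSN1S2 was at 255, 23.2 and 681 FPKM in MG and 3531, 2088 and 95.1 FPKM in LG. LALBA, the alpha-lactalbumin subunit of lactose synthase, was at 94.1, 6.60 and 66.7 FPKM in MG and 217, 272 and 14.6 FPKM in LG, and WAP, whey acidic protein, at 10.1, 1.22 and 51.8 FPKM and 123, 65.0 and 6.93 FPKM. In all 3 genes MG_3 was the lowest of the 6 samples and LG_4 lay within the MG range, while LG_1 and LG_3 lay above it. These 3 genes were examined beyond the naming rule after their values were seen.

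**Figure D4:**
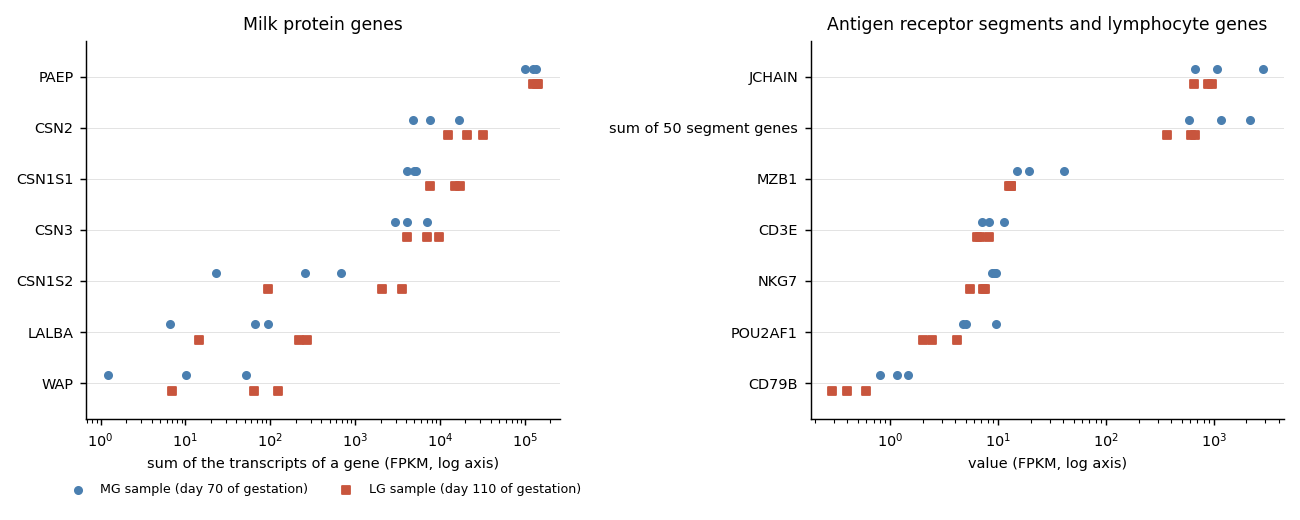
FPKM on a log axis in each MG (circle) and LG (square) sample, on the left for the 7 milk protein genes and on the right for JCHAIN, the sum of 50 antigen receptor segment genes and 5 lymphocyte genes. Only CSN1S1 separates the stages on the left, with LG_4 beside the MG samples for CSN1S2, LALBA and WAP, and MG_6 is the highest sample for JCHAIN and the segment sum.

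Without overlap, the list of fat synthesis had 2 members higher and 1 lower, fat uptake 1 higher and the milk fat globule membrane 1 lower. After scaling, fat synthesis had 4 higher and 1 lower, fat uptake 2 higher and the globule membrane none. Over all measured gene sums 3.24% were higher and 12.9% lower without overlap, and 8.62% and 6.31% after scaling. In fatty acid synthesis (15 measured, median 0.06, 0.21 after scaling), the lipogenic regulator SREBF1 was at 156, 181 and 140 FPKM in MG and 247, 208 and 240 FPKM in LG (log2 fold change 0.54, SE 0.23). In fatty acid uptake and triglyceride synthesis (12 measured, median 0.15, 0.30 after scaling), the fatty acid translocase CD36 was at 19.5, 26.6 and 6.40 FPKM in MG and 25.7, 47.0 and 23.4 FPKM in LG, with MG_3 above 2 LG samples. Among genes of the milk fat globule membrane (8 measured, median 0.32, 0.47 after scaling), XDH, which binds butyrophilin on the lipid droplet, was at 436, 122 and 144 FPKM in MG and 451, 743 and 270 FPKM in LG, with MG_1 above LG_4. FASN, fatty acid synthase, was at 12.0, 0.414 and 1.67 FPKM in MG and 0.116, 0.241 and 0.0781 FPKM in LG, values of the single reference transcript in the table, named after they were seen.

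SLC34A2, the apical sodium-phosphate cotransporter of the milk-secreting cell, was at 116, 160 and 137 FPKM in MG and 215, 228 and 198 FPKM in LG (log2 fold change 0.64, SE 0.16, limma adjusted p = 0.83), and ATP1B1, a subunit of the sodium pump, at 38.2, 45.8 and 50.1 FPKM and 25.7, 11.2 and 11.3 FPKM. Neither overlapped, in a list of 15 water and ion transporters with a median of 0.15 (0.30 after scaling). Of 16 amino acid transporters (median -0.04, 0.07 after scaling), SLC7A8 (log2 fold change 0.65, SE 0.25) was higher and SLC1A5 (-0.53, SE 0.22) lower in all 3 LG samples. Of 11 genes for glucose and lactose supply (median -0.16, -0.01 after scaling), only the glucose transporter SLC2A8 was lower at an unadjusted p below 0.05.

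In the colostrum and milk defence list (12 measured, median 0.05, 0.19 after scaling), PGLYRP1, which binds bacterial peptidoglycan, was at 1605, 541 and 747 FPKM in MG and 2989, 3164 and 1375 FPKM in LG. Its log2 fold change was 1.44 (SE 0.50), with MG_1 above LG_4. JCHAIN, the joining chain of secretory IgA and IgM, was at 670, 1076 and 2838 FPKM in MG and 969, 654 and 872 FPKM in LG, which overlapped, and its log2 fold change of -0.63 was -0.05 without MG_6.

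Among reference genes, the highest positive log2 fold change under the rule for the leading genes was that of the vitamin D receptor VDR (chr5:78205807-78266505), a regulator of calcium handling. It was at 0.0461, 0.180 and 7.43 FPKM in MG and 73.5, 54.6 and 34.8 FPKM in LG, a log2 fold change of 5.19 (SE 1.07, limma adjusted p = 0.57). The transcript XM_021091108.1 made up most of it, at 0.0461, 0.180 and 0 FPKM in MG and 51.9, 34.2 and 26.4 FPKM in LG. The other reference transcript, NM_001097414.1, went from 0, 0 and 7.43 FPKM to 21.6, 20.4 and 8.42 FPKM. Without MG_6, the only MG sample above 1 FPKM, VDR passed (log2 fold change 6.43, limma adjusted p = 0.033). In the list of 12 measured genes of calcium secretion (median -0.22, -0.11 after scaling), the only other member at an unadjusted p below 0.05 was ATP2A2, a calcium pump of the endoplasmic reticulum, which was lower in all 3 LG samples (log2 fold change -0.37, SE 0.17).

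By the rule of largest change among reference genes at an unadjusted p below 0.05 without overlap and with a mean of at least 10 FPKM in a stage, 35 genes were higher and 326 lower in LG. These counts are of values as deposited and depend on the scaling. Over all measured gene sums, 1.28% were higher and 3.78% lower at an unadjusted p below 0.05 as deposited. After median ratio scaling 570 of the 21794 were higher and 531 lower. Beside VDR, IFI6, ISG12(A), DDX60, CSN1S1 and DHX58, the leading genes higher in LG were the chromatin reader MBTD1 (1.84, 0.754 and 9.81 FPKM against 26.9, 15.2 and 23.5 FPKM), the inhibitory G protein subunit GNAI3 (3.22, 1.94 and 2.32 FPKM against 22.1, 10.5 and 5.29 FPKM), the centrosomal protein PPP1R35 (10.4, 8.65 and 5.49 FPKM against 18.4, 19.2 and 20.1 FPKM) and the keratin KRT79 (10.3, 7.82 and 6.27 FPKM against 14.5, 24.4 and 19.9 FPKM). MBTD1 passed without MG_6 (limma adjusted p = 0.037) and not otherwise among the 6 fits that left out 1 sample each.

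Among the leading genes lower in LG were PHB2, a mitochondrial prohibitin, at 120, 124 and 128 FPKM in MG and 0.0433, 0.317 and 49.3 FPKM in LG, and DYNC1I2, a dynein intermediate chain, at 13.3, 60.2 and 9.15 FPKM in MG and listed at 0 in LG. Both rest on 1 reference transcript each. The phospholipase PLD2 (log2 fold change -3.25, SE 0.99), the TNF receptor adaptor TRAF2 (-2.79, SE 0.98), the atypical protein kinase C gene PRKCZ (-2.27, SE 0.61) and NGDN (-2.16, SE 0.95) followed. PLD2, TRAF2 and PRKCZ also rest on 1 reference transcript each. PLD2 was listed at 0 in LG_1 and LG_3, and TRAF2 in LG_4. TRAF2 was at -1.23 without LG_4 and NGDN at -0.52 without LG_3. For NGDN the 2 reference transcripts went opposite ways, NM_001244788.1 from 24.2, 23.7 and 20.7 FPKM to 14.1, 0 and 0 FPKM and XM_021098198.1 from 0 in all MG samples to 16.2 FPKM in LG_4.

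The other 4 leading genes lower in LG were antigen receptor segments, LOC102167466 and LOC110256717 on chromosome 14 and LOC110258820 and LOC110258838 on unplaced sequence. LOC110256717, a constant region, was at 57.9, 170 and 335 FPKM in MG and 33.3, 0.0662 and 1.43 FPKM in LG. All 50 measured genes that the annotation types as V segment or C region were therefore examined, a group chosen after these values were seen. Of them 41 had a negative log2 fold change, and the median was -0.75 (-0.60 after scaling). Without overlap 9 were lower and 1 higher (12.9% and 3.24% of all measured gene sums), and after scaling 7 and 2. At an unadjusted p below 0.05, 6 were lower (3.78% of all measured gene sums). The 4 leading segments that prompted the choice are among the 9 and the 6, so these counts are not independent of it. Their sums overlapped, at 581, 1164 and 2134 FPKM in MG and 662, 365 and 613 FPKM in LG, with MG_6 far above the rest. Such segments share sequence, so that reads may be split among them and single values are uncertain.

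In the list of T, B and plasma cells 17 of 19 measured members had a negative log2 fold change, and the median was -0.36 (-0.24 after scaling). Without overlap 6 were lower before and after scaling, against 12.9% and 6.31% of all measured gene sums. At an unadjusted p below 0.05, 3 were lower as deposited and 0 after scaling. MZB1, a chaperone of antibody assembly, was at 15.0, 19.4 and 40.4 FPKM in MG and 13.1, 13.3 and 12.5 FPKM in LG, and its log2 fold change of -0.79 was -0.38 without MG_6. POU2AF1, a coactivator of antibody genes, was at 4.72, 5.06 and 9.54 FPKM against 2.01, 2.44 and 4.14 FPKM, and the B cell receptor subunit CD79B at 0.802, 1.45 and 1.17 FPKM against 0.599, 0.396 and 0.290 FPKM.

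Genes of antigen presentation on MHC molecules (23 measured, median -0.21, -0.06 after scaling) had 3 class II members lower at an unadjusted p below 0.05. SLA-DQA1 was at 253, 308 and 303 FPKM in MG and 204, 179 and 197 FPKM in LG, SLA-DQB1 had a log2 fold change of -0.60 (SE 0.21) and SLA-DRA one of -0.43 (SE 0.17). MHC genes are polymorphic and alike in sequence, and their values are uncertain for that reason. The macrophage list (15 measured) had a median of -0.32 (-0.17 after scaling) and the chemokines (18 measured) one of -0.29 (-0.16 after scaling). Lower without overlap were 1 macrophage member (1 after scaling) and 4 chemokines (2 after scaling). Over all measured gene sums the share was 12.9%, and 6.31% after scaling.

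In the list of immediate early and heat shock genes, 5 of 21 measured members were lower at an unadjusted p below 0.05 and none higher (median -0.27, -0.12 after scaling). After scaling 5 were lower at that p and none higher. Over all measured gene sums 3.78% were lower at that p as deposited, and 531 of 21794 after scaling. HSPA8, the constitutive HSP70 chaperone, was at 747, 943 and 769 FPKM in MG and 491, 477 and 517 FPKM in LG, a log2 fold change of -0.72 (SE 0.21, limma adjusted p = 0.98). The HSP70 cofactor HSPH1 was at 27.5, 36.4 and 32.7 FPKM in MG and 13.6, 17.7 and 14.8 FPKM in LG (-1.04, SE 0.24, limma adjusted p = 0.69), and HSP70.2, an inducible HSP70 gene for which the annotation gives HSPA1A as a synonym, at 42.3, 60.0 and 44.7 FPKM against 30.1, 31.4 and 28.7 FPKM. Of the transcription factors, FOSL2 (-1.22, SE 0.43, and -0.70 without LG_1) did not overlap and EGR1 (-1.29, SE 0.55) did. Among 40 genes of folding and secretion in the endoplasmic reticulum (median -0.15, 0.00 after scaling), HYOU1, MANF and HSPA5 were lower and the translocon subunit SEC61A1 higher at an unadjusted p below 0.05.

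For fibroblasts and collagens (27 measured) the median was -0.40 (-0.25 after scaling), with 1 member lower without overlap and none at an unadjusted p below 0.05. Over all measured gene sums 12.9% were lower without overlap as deposited. COL3A1, a fibrillar collagen, was at 795, 1104 and 966 FPKM in MG and 583, 557 and 1007 FPKM in LG, with LG_4 inside the MG range. The summed list was at 3253, 4287 and 4153 FPKM in MG and 2734, 2453 and 4039 FPKM in LG, where LG_4 again lay with MG. Matrix proteases and their inhibitors (22 measured) had a median of -0.40 (-0.26 after scaling), with 3 lower without overlap as deposited and 2 higher and 0 lower after scaling.

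Of the markers of the main gland compartments, the luminal list (18 measured) had a median of -0.01 (0.14 after scaling), the basal and myoepithelial list (16 measured) one of -0.17 (-0.02 after scaling), the endothelial list (19 measured) one of -0.05 (0.10 after scaling) and the adipocyte list (9 measured) one of 0.15 (0.30 after scaling), and no member of these 4 lists had an unadjusted p below 0.05. Summed luminal markers were at 2340, 2932 and 2107 FPKM in MG and 2213, 2391 and 2312 FPKM in LG. Skin markers (8 measured) were highest in MG_6 and LG_4, with sums of 112 and 96.3 FPKM against 14.8 to 45.4 FPKM in the other 4 samples. Only 2 of 12 erythrocyte genes and 1 of 17 skeletal muscle genes were measured, with haemoglobin HBB at 181, 142 and 131 FPKM in MG and 116, 124 and 46.4 FPKM in LG. The part of cell composition in the differences above was not tested.

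Genes of energy metabolism depended on the scaling. Over all measured gene sums, 3.24% were higher and 12.9% lower without overlap as deposited, and 8.62% and 6.31% after scaling. At an unadjusted p below 0.05, 3.78% were lower as deposited. Of 33 nuclear genes of the respiratory chain, all had negative log2 fold changes as deposited, 18 were lower without overlap and 5 at an unadjusted p below 0.05, but after scaling 6 were lower without overlap and the median went from -0.19 to -0.04. NDUFB3, a complex I subunit, was at 92.8, 103 and 89.0 FPKM in MG and 71.2, 70.4 and 75.4 FPKM in LG. Of 12 genes of the mitochondrial genome, 3 were higher without overlap as deposited and 9 after scaling (median 0.06 and 0.21). COX1 was at 13053, 13296 and 13667 FPKM in MG and 15619, 15245 and 14501.5 FPKM in LG (log2 fold change 0.18, SE 0.10). Among 78 ribosomal protein genes the median was -0.06 as deposited and 0.09 after scaling, and the genes without overlap went from 1 higher and 3 lower to 16 higher and 0 lower. RPL32 was at 1608, 906 and 1589 FPKM in MG and 3044, 3047 and 2045 FPKM in LG (log2 fold change 1.01, SE 0.32), a value that processed copies of the gene could share.

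**Figure D5:**
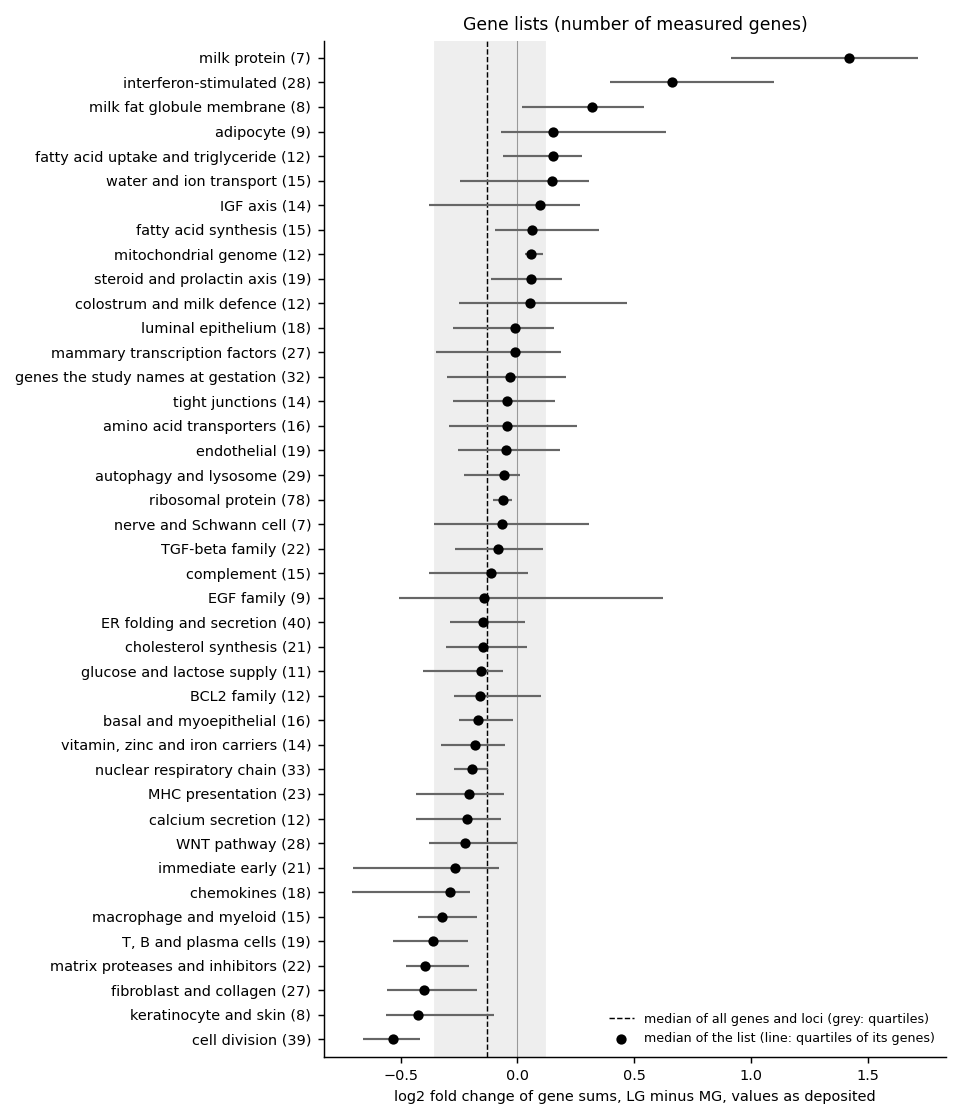
For each of the 41 lists with at least 5 measured genes, the median log2 fold change (LG minus MG, points) and the quartiles of its genes (lines), values as deposited, beside the median of all measured genes and loci, -0.13 (dashed), and their quartiles (grey). The interferon-stimulated and milk protein lists have medians of 0.66 and 1.42, right of the dashed line, and the cell division list one of -0.53, left of it.

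Among the hormone and growth factor lists, no member of the steroid and prolactin axis (19 measured, median 0.06, 0.17 after scaling), the IGF axis (14, 0.10, 0.24), the EGF family (9, -0.14, 0.00), the TGF-beta family (22, -0.08, 0.05) or the WNT pathway (28, -0.23, -0.08) had an unadjusted p below 0.05. STAT5A, the partner of STAT5B, was at 7.79, 11.2 and 7.25 FPKM in MG and 70.7, 9.84 and 8.74 FPKM in LG, so that LG_1 stood alone. ERBB2, the coreceptor of the EGF family, was at 11.4, 5.62 and 14.4 FPKM in MG and 22.9, 20.2 and 21.6 FPKM in LG without overlap (log2 fold change 1.10, SE 0.57, and 0.73 without MG_3). STAT5A was named after its values were seen. Of 27 mammary transcription factors (median -0.01, 0.14 after scaling), RUNX1 was lower at an unadjusted p below 0.05, at 11.4, 17.6 and 20.3 FPKM in MG and 0.373, 11.8 and 1.33 FPKM in LG, where LG_3 overlapped. In the BCL2 family (12 measured, median -0.16, -0.01 after scaling), the survival factor BCL2 was at 7.16, 10.2 and 10.3 FPKM in MG and 6.14, 2.93 and 3.52 FPKM in LG, and the death-promoting BMF at 17.9, 6.86 and 22.4 FPKM against 35.4, 28.1 and 34.2 FPKM.

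The remaining lists were cholesterol synthesis (21 measured, median -0.15, -0.01 after scaling), tight junctions (14, -0.04, 0.10), vitamin, zinc and iron carriers (14, -0.18, -0.03), complement (15, -0.12, 0.02), autophagy and lysosome (29, -0.06, 0.09) and nerve and Schwann cells (7, -0.06, 0.08). In these 6 lists 1 member had an unadjusted p below 0.05. Of 32 genes that the study itself names for gestation, 4 were higher (VDR, CSN1S1, DDX60 and CD36) and 2 lower (BCL2 and RC3H1) at an unadjusted p below 0.05, with a median of -0.03 (0.12 after scaling). That list was chosen on these samples and is no independent evidence of its direction.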

How the data were processed

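RNA of mammary tissue from 30 sows was sequenced from TruSeq RNA v2 libraries, a kit that does not mark strand. Per the labels and methods, the authors used FastQC and Trimmomatic for read quality, HISAT2 for alignment to Sscrofa11.1 and StringTie for assembly, and kept transcripts of at least 0.5 FPKM. It is not stated whether the deposited FPKM values include the correction for unwanted variation (RUVs) that the methods name.

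No counts were at hand, so limma 3.58.1 in R 4.3.3 (trended variance, Benjamini-Hochberg adjustment over all features) replaced the count test that the methods name, on log2(FPKM + 0.5). The 15 counted samples of 5 stages shared 1 estimate of spread, and the LG minus MG contrast was read. Transcripts were matched by identifier to the RefSeq annotation of Sscrofa11.1, which gave symbols and coordinates for 32688 of the 32726 reference transcripts, and 29047 were assembled ones. Sums over a gene hold its reference transcripts, since assembled transcripts of the same gene could not be tied to it. Exact permutation tests of 3 against 3 samples cannot go below p = 0.10, so overlap is reported in their place. Samples were called separate only where the groups did not overlap. Where nothing says otherwise, log2 fold changes of genes are of these sums.

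Named were the differing transcripts, the 10 genes with the largest change in each direction under the rule given with them, and, in each of 43 lists (999 gene entries, 881 with a value), the 4 most abundant members and those at an unadjusted p below 0.05. Others are said to be chosen after their values were seen. The comparison, its samples and the lists were chosen with earlier results of these data known. Tested on simulated data, with 200 changes planted among 61773 transcripts, the fit called 69% of those of 3 and 84% of those of 4 on the log2 scale, with 8 false calls. Of the 19 alternatives tried, 2 were added after the data were seen. The 6 samples close to the mean of the others were left out. Values of 2 list members are not reported here.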

Additional observations from a re-analysis of the deposited data

How the results depend on the processing

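The count of differing transcripts, 10, moved by more than 1.5 times with a pseudocount of 0.1 (25), a mean of at least 1 FPKM (3), all 6 samples per stage (2161), near-identical samples counted once (208), the replicate block and each sample left out. Leaving out 1 sample gave 50 to 72 transcripts and 5 to 22 gene sums, and all 10 transcripts were among those called each time. Without an LG sample 22.0% to 28% of the transcripts were lower, and without an MG sample 74.1% to 85.2%. Of the 10 transcripts, 2 were kept with the replicate block, 3 with a mean of at least 1 FPKM and 6 with a pseudocount of 1. Quantile normalization, median ratio scaling and peak lactation left out of the fit each kept 8. LG and MG alone kept none. The count of gene sums, 3, became 1 with a mean of at least 1 FPKM, 6 with LG and MG alone (none of the 3 among them), 318 with all 6 samples, 46 with near-identical samples counted once, and, in the 2 alternatives chosen after seeing the data, 5 without peak lactation in the fit and 8 with median ratio scaling of LG and MG alone. Quantile normalization gave 6 transcripts higher and 3 lower, and median ratio scaling 5 and 3. At an unadjusted p below 0.05, gene sums split 300 higher to 854 lower as deposited and 591 to 555 after median ratio scaling. No value past its threshold changed sign, but with groups by the stage text the medians of the milk protein list (1.42 to -1.38) and of the cell division list (-0.53 to 0.15) did, and that of the interferon-stimulated list went from 0.66 to 1.06, the latter 2 lists being added to this alternative after seeing the data. The median of the interferon-stimulated list ran from 0.57 to 0.82 and that of cell division from -0.66 to -0.39 over the alternatives grouped by title. The cause of these shifts was not tested. With the replicate number as a replicate block, 4 transcripts and 2 gene sums were called. The numbers do not pair the sows, since samples with the same number deviated together with a mean correlation of 0.0042, and only numbers 1 and 3 occur in both LG and MG. The paper states that raw counts of the transcripts are held in a separate public repository. They were not used here, so the number of reads behind low values was not examined.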
